A study of Rattus norvegicus with 16 samples.

Results

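What a methionine- and choline-deficient (MCD) diet did to the liver transcriptome of Tspo-knockout rats was examined in 8 of the series' 16 RNA-seq libraries. These are the libraries labelled tspo -/- and fed chow (4) or MCD (4), and all genes with enough counts were followed, 11162 of the 17168 in the table. The rats were of the Sprague Dawley strain, ate normally until 12 weeks of age, were then given chow or MCD for 8 weeks, and were 20 weeks old at sampling. Every rat compared here carries the same genotype label, so the comparison is of diets within the knockout, and the other 8 libraries are wild type under the same 2 diets. The series' design text gives the purpose of the diet as the induction of non-alcoholic steatohepatitis. The sources used here do not say how the knockout was made, which part of Tspo it removes or the sex of the rats. They also do not say that the 4 libraries of a group are 4 separate rats, and p-values then cover only the spread of these libraries, which may be technical.

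Tspo encodes the translocator protein, a cholesterol- and porphyrin-binding protein of the outer mitochondrial membrane. Choline and methionine are both needed to make phosphatidylcholine, the main phospholipid of the coat of very low density lipoprotein. Without them the liver cannot export triglyceride normally, fat collects in hepatocytes, and inflammation and fibrosis follow. Methionine is also the precursor of S-adenosylmethionine, the methyl donor of most methylation reactions, and of cysteine and glutathione.

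Levels are given as CPM, the standard per-million-counts unit, here with TMM-scaled library totals, in the order of library numbers 1 to 4, or as mean ± SD over the 4 libraries of a group (n = 4). Differences are log2 folds of MCD over chow ± SE from edgeR's quasi-likelihood test. A gene was said to rise or fall where its Benjamini-Hochberg adjusted p over all 11162 genes was under 0.05. The 8 libraries held 10749769 to 15347832 counts each. In bulk tissue, fewer cells of a type and less RNA per cell cannot be told apart, which touches every gene group below.

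Tspo itself, the targeted gene, stood at 1.14, 0.656, 1.29 and 4.42 CPM on chow and 4.17, 1.66, 1.02 and 1.21 CPM on MCD, with a difference of 0.14 ± 0.50 (adjusted p = 0.838). Of these 8 values 6 lay below the 3.61 to 9.33 CPM of the 8 wild-type libraries, and those of chow library 4 and MCD library 1 lay within it. The value of chow 4 was within the 3.61 to 5.23 CPM of the wild type on chow, while that of MCD 1 was below the 7.63 to 9.33 CPM of the wild type on MCD. The level of the targeted gene thus goes against the label in the library labelled knockout on chow 4, and in the library labelled knockout on MCD 1 it lies between those of the 2 genotypes on that diet. These 2 are called the doubtful libraries below. They also stood apart in other measures. On the second principal component of the 8 libraries (19.5% of the variance) they scored -53 and -41.7, while the other 6 scored -2.7 to 35.2. An index of message length was taken as the mean log2 level of 13 long messages less the mean of 23 short ones. It was -1.54 in chow 4, against -0.20 to 0.00 in chow libraries 1 to 3. It was -0.73 in MCD 1, against 1.31 to 1.71 in MCD libraries 2 to 4. A wild-type library, chow 4, departed from its group in the same direction. Its index was -0.60, against 0.19 to 0.23 in wild-type chow libraries 1 to 3. A low index for the group was thus not particular to the doubtful libraries. The index therefore moved with the diet as well as within the groups: of the long messages 8 rose and 0 fell, and of the short ones 0 rose and 11 fell. With the index, as its deviation from the group mean, added to the fit as a covariate, 5599 genes were called, among them 4509 of the 4514 called without it. The part of the index that differs between the diets cannot be told apart from the diet. Beside each gene group, counts are also given without the doubtful libraries. Individual genes carry a second value where leaving out those libraries, or any 1 library, changed a call or moved a called log2 fold by over 1.5 times. Genes that did not pass the test carry one also where leaving out the doubtful libraries moved a log2 difference of at least 0.5, with or without them, by over 1.5 times.

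Both groups were liver by their markers. The summed level of 5 hepatocyte markers was 146000 to 189700 CPM on chow and 73970 to 87340 CPM on MCD, and markers of fat were at 0 to 0.134 CPM. Ribosomal RNA took 5.37 to 21.9% of the counts on chow and 2.48 to 20.9% on MCD, and leaving out its 3 rows gave 4503 called genes.

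On MCD, 4514 of the 11162 genes (40.4%) changed, 2447 upward (21.9%) and 2067 downward (18.5%). Of these, 1523 rose at least 2-fold (13.6%), 908 fell at least 2-fold (8.13%), 466 rose at least 4-fold and 174 fell at least 4-fold. Shares of a gene list are to be read against these percentages, since a list with 40.4% of its members called is at the background. The 4 MCD libraries lay wholly above the 4 chow libraries in 1970 tested genes (17.6%) and wholly below them in 1560 (14%). A lack of overlap in a named gene is to be read against these shares, since genes were named by size or p. The median gene differed by 0.04 on the log2 scale and the median absolute difference was 0.54. All directions are relative to the scaling: TMM factors were 0.64 to 0.82 on chow and 1.14 to 1.33 on MCD, and without them the median gene differed by 0.77, with 6448 genes higher and 405 lower. With upper quartile factors the median was 0.15, with 2836 higher and 1686 lower. Where the scaling changes the sign of a list's median, or having none moves a count of at least 5 members by over 1.5 times, the other values are given beside it. Without the doubtful libraries 4879 genes were called, of which 4087 were among the 4514 (90.5%), with 0 in the opposite direction.

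**Figure D1:**
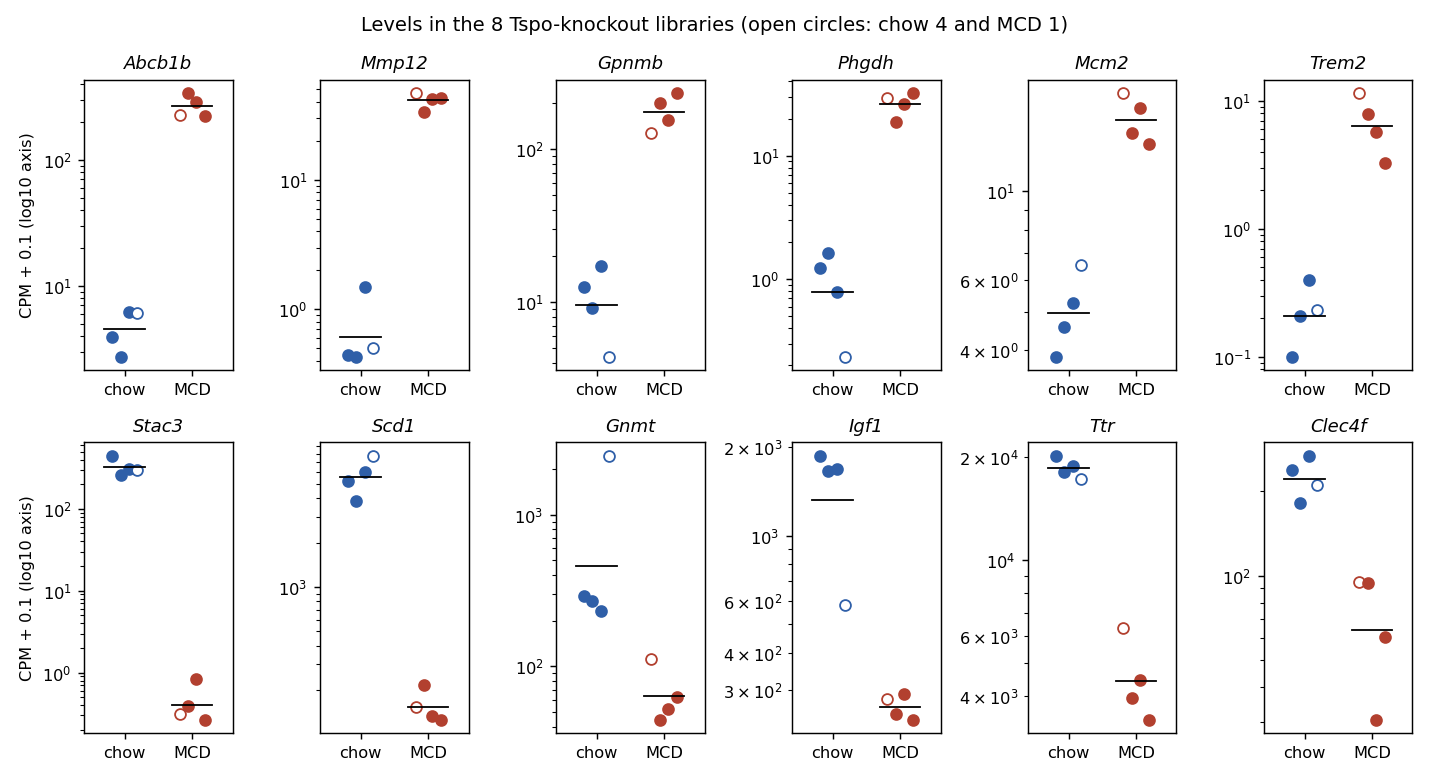
Levels of 12 genes in each of the 8 knockout libraries (log10 axis, CPM with 0.1 added), with chow on the left and MCD on the right of each panel, a bar at the geometric mean, and open circles for the doubtful libraries (chow 4 and MCD 1). The 4 MCD libraries lie wholly above or below the 4 chow libraries in each panel, for example Abcb1b at 221 to 339 CPM on MCD and 2.62 to 6.14 CPM on chow. Over all tested genes they lie wholly above in 17.6% and wholly below in 14%.

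The 15 genes that rose most were taken from called genes with at least 5 CPM on MCD and at least 3 mean counts on chow. Only genes whose groups did not overlap were eligible, so the lack of overlap was fixed by that choice. Genes almost absent on chow, such as Acot1 with 3 counts in the 4 libraries, were left out by the filter on counts. The 15 were of mixed function, and the matrix proteases Mmp12 and Mmp27 and the export pump Abcb1b were among them. Mmp12, the elastase secreted by macrophages, stood at 0.341, 0.328, 1.39 and 0.402 CPM on chow and 46.9, 33.4, 41.98 and 43.01 CPM on MCD. The lowest MCD library lay far above the highest chow library, at a log2 fold of 5.99 ± 0.55 (adjusted p = 3.00e-06). Abcb1b, a multidrug export pump of the bile canaliculus, had 3.86, 2.62, 6.14 and 6.03 CPM on chow and 225, 339, 289 and 221 CPM on MCD. The lowest MCD library was far above the highest chow library, and the log2 fold was 5.85 ± 0.46 (adjusted p = 5.87e-07). Gpnmb, a membrane glycoprotein of lipid-laden macrophages, had 12.4, 9.08, 17.03 and 4.28 CPM on chow and 127, 199.9, 155 and 233 CPM on MCD, again with no overlap, and a log2 fold of 4.05 ± 0.38 (adjusted p = 3.45e-06). A2m, the protease inhibitor alpha-2-macroglobulin that rats make in the acute phase, rose from 8.901 ± 4.92 to 148 ± 45.6 CPM, and Zbtb16, a transcription factor induced by glucocorticoids, rose from 0.859 ± 0.936 to 26.8 ± 18.2 CPM. Sntb1, a syntrophin that anchors membrane proteins, had 1.02, 1.42, 0.693 and 0.670 CPM on chow and 12.4, 19.5, 11.6 and 19.5 CPM on MCD. Both sets of 4 values were narrow and far apart, at a log2 fold of 4.03 ± 0.30 (adjusted p = 2.74e-07). Mmp27, another matrix protease, had 1.25, 0.109, 0.396 and 0 CPM on chow and 82.9, 11.8, 11.5 and 4.36 CPM on MCD. The highest value by far was in MCD 1, a doubtful library, and the log2 fold was 5.91 ± 1.14 (adjusted p = 9.43e-04). Without the doubtful libraries the Mmp27 log2 fold was 3.98. Also among the 15 were Gpr64, an adhesion receptor, Cyfip2, a regulator of actin assembly, Tenm2, a teneurin adhesion protein, the cytochromes P450 Cyp2c24 and Cyp2b1, the membrane protease Prss8, Cds1, which makes CDP-diacylglycerol, and Phgdh of serine synthesis. The first 7 of these had log2 folds of 5.41, 4.50, 4.48, 4.37, 4.19, 4.18 and 4.01 in that order.

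The 15 genes that fell most, chosen in the same way with the diets exchanged, were of mixed function too. A desaturase, sulfotransferases and hemoglobin genes were among them. Genes almost absent on MCD, such as Sult1e1 with 1 count in the 4 libraries, were left out by the filter on counts, so the 15 are not the largest falls of all. Stac3, an adaptor known from excitation-contraction coupling in muscle, had 447, 262, 306 and 301 CPM on chow and 0.209, 0.286, 0.728 and 0.166 CPM on MCD. Every MCD library was under 1 CPM, at a log2 fold of -9.90 ± 0.39 (adjusted p = 1.56e-10). The desaturase that makes monounsaturated fatty acids, listed as Scd1 (the gene now called Scd), had 5211, 3853, 6071 and 7784 CPM on chow and 153, 216, 132 and 125 CPM on MCD. Its highest chow value was in the doubtful chow 4, and the log2 fold was -5.19 ± 0.44 (adjusted p = 1.21e-06). Cyp2c7, a steroid- and retinoid-oxidising cytochrome P450, fell from 7904 ± 3131 to 170.1 ± 108 CPM, at a log2 fold of -5.54 ± 0.46 (adjusted p = 1.06e-06). Pnpla3, which remodels triglyceride on lipid droplets, had 505, 383, 563 and 50.1 CPM on chow and 3.69, 3.09, 5.97 and 11.9 CPM on MCD. Its relative Pnpla5 had 99.9, 62.1, 93.1 and 24.5 CPM on chow and 0.834, 0.286, 1.16 and 0.331 CPM on MCD. For both the lowest chow value was in chow 4, still above every MCD value, and the log2 folds were -5.92 ± 0.80 (adjusted p = 6.05e-05) and -6.78 ± 0.64 (adjusted p = 3.64e-06). Prlr, the prolactin receptor, fell from 75.99 ± 46.4 to 4.03 ± 3.09 CPM, and Aspg, an asparaginase, fell from 202 ± 75.00 to 9.397 ± 5.04 CPM. A1bg, a plasma glycoprotein, varied widely on chow, with 5.68, 80.05, 18.8 and 1.34 CPM on chow and 0.139, 0.229, 0.364 and 0.0552 CPM on MCD. All 4 MCD values were nevertheless below the lowest chow value, and the log2 fold was -7.06 ± 1.16 (adjusted p = 2.93e-04). Ltc4s, which makes leukotriene C4, fell at a log2 fold of -4.96. Duoxa1, a maturation factor of dual oxidase, fell at a log2 fold of -4.25, and Sult4a1, a sulfotransferase-like protein, at -4.78. The hemoglobin genes Hbb and Hbb-b1 and the sulfotransferases Sult2a1 and Sult2a2 complete the 15 and are taken up with their families.

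**Figure D2:**
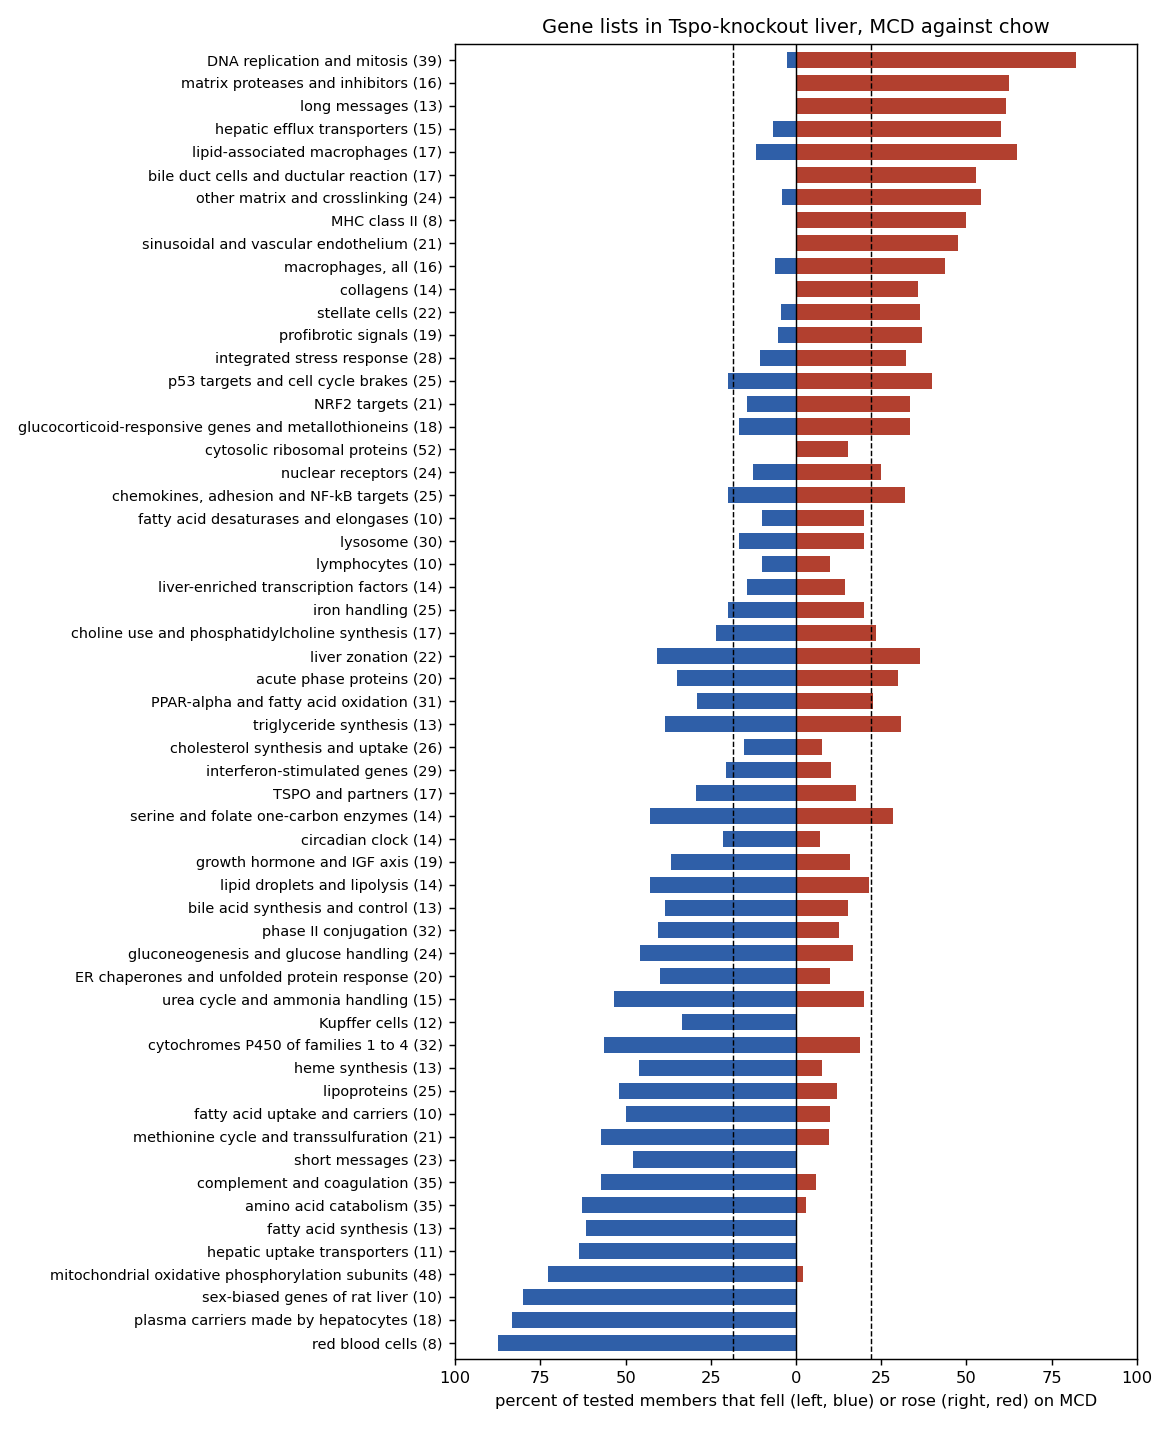
Percent of tested members that rose (right) and fell (left) in each gene list, with the number tested in brackets, and dashed lines at the background over all 11162 genes (21.9% higher and 18.5% lower). Genes of DNA replication and mitosis, efflux transporters and lipid-associated macrophages lie far to the right of the line, and plasma carriers, red blood cell and oxidative phosphorylation genes far to the left.

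Enzymes that spend S-adenosylmethionine fell, and Mat2a, one of the genes for its synthesis, rose. In the methionine cycle and transsulfuration, 2 of 21 tested members rose and 12 fell (3 and 12 without the doubtful libraries), with a median log2 difference -0.86 (-0.15 without scaling factors, with 5 called higher and 6 lower). Gnmt, the glycine methyltransferase that disposes of excess S-adenosylmethionine, had 291, 269.6, 229.7 and 2448 CPM on chow and 111, 44.3, 51.9 and 62.2 CPM on MCD. Each MCD library was below each chow library, at a log2 fold of -3.59 ± 0.77 (adjusted p = 0.00194, with -2.32, adjusted p = 0.00271, without the doubtful libraries and -1.97, adjusted p = 0.00578, without chow library 4). All 4 consumers on the list fell, the others being Nnmt, which methylates nicotinamide, Gamt, which makes creatine, and Pemt, which makes phosphatidylcholine, at log2 folds of -2.60, -1.64 and -0.86. Mat2a, the synthetase isoform prominent outside the adult liver and in dividing hepatocytes, had 8.29, 11.4, 9.704 and 23.3 CPM on chow and 67.9, 55.1, 44.2 and 32.8 CPM on MCD. All MCD libraries were higher, at a log2 fold of 1.93 ± 0.31 (adjusted p = 2.14e-04). The liver isoform Mat1a fell from 2421 ± 1349 to 1123 ± 321 CPM, at a log2 fold of -1.11 ± 0.32 (adjusted p = 0.0129, with -0.65, adjusted p = 0.0617, without the doubtful libraries and -0.64, adjusted p = 0.0567, without chow library 4). On the path from homocysteine to cysteine and taurine, Cbs fell at a log2 fold of -2.25 and Cdo1, cysteine dioxygenase, at -2.28, while Cth had 2211 ± 2746 CPM on chow and 759 ± 90.3 CPM on MCD (adjusted p = 0.0763, at a log2 difference of -1.54, and -0.23, adjusted p = 0.749, without the doubtful libraries and -1.85, adjusted p = 0.0415, without chow library 1 and -1.83, adjusted p = 0.0462, without chow library 3). Mtr, the folate-dependent enzyme that remakes methionine, rose from 6.79 ± 2.38 to 15.78 ± 5.68 CPM.

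Of the choline-using steps, shares near the background of 21.9% and 18.5% rose and fell. Here 4 of 17 tested members rose and 4 fell (4 and 5 without the doubtful libraries), with a median log2 difference -0.30 (0.42 without scaling factors). Pcyt1a, the rate-limiting enzyme of phosphatidylcholine synthesis from choline, rose from 8.79 ± 2.49 to 16.96 ± 4.17 CPM, and the choline transporter-like genes Slc44a2 and Slc44a3 rose at log2 folds of 0.92 and 1.87. Pcyt2, the matching step for ethanolamine, fell from 442 ± 152 to 189 ± 34.8 CPM, the transferase Cept1 fell at a log2 fold of -1.19 (-0.81, adjusted p = 0.0589, without chow library 4) and the ethanolamine kinase Etnk2 at -1.27.

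The first steps of serine synthesis rose, while of the folate enzymes 2 of 11 rose and 5 fell. Phgdh, the first enzyme of serine synthesis, had 1.14, 1.53, 0.693 and 0.134 CPM on chow and 29.2, 18.8, 25.97 and 32.2 CPM on MCD. Psat1, the second, had 3.63, 3.72, 2.57 and 1.34 CPM on chow and 11.8, 12.02, 18.7 and 19.9 CPM on MCD. Neither had an overlap between the diets, and the log2 folds were 4.88 ± 0.58 (adjusted p = 2.00e-05) and 2.45 ± 0.34 (adjusted p = 7.86e-05). Mthfd2 and Mthfd1l, which carry single-carbon units through the mitochondrion, rose at log2 folds of 2.23 and 3.14. Over the whole group of serine and folate enzymes, 4 of 14 tested members rose and 6 fell (5 and 5 without the doubtful libraries, and 3 falling without MCD library 3), with a median log2 difference -0.45 (0.30 without scaling factors, with 6 called higher and 1 lower). Those that fell include Ftcd, which passes histidine carbon into the folate pool, and Aldh1l2, which removes carbon from it, at log2 folds of -1.79 and -1.01 (-0.85 to -0.98, adjusted p = 0.0516 to 0.0632, without any 1 of chow 1, chow 2, MCD 2 and MCD 3).

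Most lipogenic genes fell. Of the fatty acid synthesis list 0 of 13 tested members rose and 8 fell (0 and 9 without the doubtful libraries), and its median log2 difference -1.43 (-0.66 without scaling factors, with 1 called higher and 5 lower) stood beside 0.04 over all genes. Thrsp, a thyroid-responsive lipogenic regulator, had 1882, 1608, 1643 and 932 CPM on chow and 233, 126, 184 and 219.9 CPM on MCD. No MCD library reached the lowest chow library, and the log2 fold was -2.99 ± 0.30 (adjusted p = 6.33e-06). Srebf1, the transcription factor of lipogenesis, fell from 587 ± 293 to 218 ± 71.6 CPM, at a log2 fold of -1.43 (-0.92, adjusted p = 0.0475, without the doubtful libraries). Fasn, fatty acid synthase, had 829.6, 985, 873 and 565 CPM on chow and 105, 179.9, 299 and 390.5 CPM on MCD. Acly, which makes cytosolic acetyl-CoA, had 884, 946, 1118 and 526 CPM on chow and 207, 248, 337 and 423 CPM on MCD. MCD library 4 was the highest on MCD in both and still below chow library 4, the lowest on chow, and the log2 folds were -1.74 ± 0.34 (adjusted p = 0.00113) and -1.52 ± 0.31 (adjusted p = 0.00135). The acetyl-CoA carboxylases did not pass the test, with Acaca at 49.8 ± 17.9 CPM on chow and 44.1 ± 19.6 CPM on MCD (adjusted p = 0.673) and Acacb at 66.8 ± 14.5 CPM on chow and 87.03 ± 38.98 CPM on MCD (adjusted p = 0.268, at a log2 difference of 0.38, and 0.60, adjusted p = 0.0426, without MCD library 1). Me1, malic enzyme, and Pklr, liver pyruvate kinase, fell at log2 folds of -1.61 and -1.49. Among desaturases and elongases 2 of 10 tested members rose and 1 fell (2 and 2 without the doubtful libraries), with a median log2 difference -0.45 (0.28 without scaling factors). Besides Scd1, which fell, the gene listed as Scd (now Scd2) rose from 7.91 ± 2.41 to 21.4 ± 6.399 CPM. Fads1 and Fads2, which make polyunsaturated fatty acids, did not pass the test with all libraries. For Fads1 the adjusted p was 0.107, at a log2 difference of -0.67, and -0.88, adjusted p = 0.0357, without chow library 4 and -1.001, adjusted p = 0.0281, without MCD library 4. For Fads2 it was 0.14, at a log2 difference of -0.68, and -0.91, adjusted p = 0.0432, without chow library 4 and -1.07, adjusted p = 0.0295, without MCD library 4.

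Triglyceride synthesis and storage changed gene by gene. Lpin1, a phosphatidate phosphatase and transcriptional coactivator, had 16.9, 21.2, 24.4 and 11.1 CPM on chow and 119.8, 199, 58.8 and 184 CPM on MCD. All 4 MCD libraries exceeded all 4 chow libraries, at a log2 fold of 2.93 ± 0.35 (adjusted p = 2.44e-05). Acsl1, Acsl4 and Acsl5, which activate fatty acids with coenzyme A, fell at log2 folds of -1.18, -1.37 and -1.10. In this list 4 of 13 tested members rose and 5 fell (4 and 4 without the doubtful libraries), with a median log2 difference -0.38 (0.38 without scaling factors, with 6 called higher and 2 lower). On lipid droplets, Pnpla2, the main triglyceride lipase, rose from 26.4 ± 3.41 to 74.7 ± 7.99 CPM and its inhibitor G0s2 fell from 374 ± 184 to 69.3 ± 36.02 CPM. The droplet coat gene Plin2 had 244 ± 16.5 CPM on chow and 279 ± 87.1 CPM on MCD (adjusted p = 0.535). Of the droplet list 3 of 14 tested members rose and 6 fell (4 and 6 without the doubtful libraries), with a median log2 difference -0.05 (0.06 with upper quartile factors and 0.67 without scaling factors, with 9 called higher and 1 lower).

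Several carriers of fatty acids fell and 1 rose. Fabp1, the liver fatty acid binding protein, had 6950.4, 6138, 6089 and 11103 CPM on chow and 1306, 769, 894 and 886 CPM on MCD. The groups did not overlap, and the log2 fold was -2.97 ± 0.29 (adjusted p = 5.64e-06). Fabp4, known from fat cells and macrophages, had 2.73, 2.84, 3.96 and 6.83 CPM on chow and 117, 44.6, 33.8 and 36.1 CPM on MCD. It moved the other way, with its highest value in the doubtful MCD 1, at a log2 fold of 3.83 ± 0.46 (adjusted p = 2.19e-05). The uptake receptor Cd36 had 50.5 ± 47.5 CPM on chow and 72.5 ± 16.2 CPM on MCD (adjusted p = 0.491, at a log2 difference of 0.52, and 1.36, adjusted p = 0.0779, without the doubtful libraries). In all, 1 of 10 tested members rose and 5 fell (the same counts without the doubtful libraries), with a median log2 difference -0.59 (0.14 without scaling factors, with 4 called higher and 2 lower).

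The receptor that drives fatty acid oxidation rose, and the share of its list that rose was near the background of 21.9%. Ppara had 8.06, 5.91, 7.62 and 4.55 CPM on chow and 20.3, 47.1, 33.8 and 46.2 CPM on MCD. Its coactivator Ppargc1a had 0.114, 0.984, 0.198 and 0.402 CPM on chow and 3.48, 8.36, 3.56 and 8.999 CPM on MCD. Both rose without overlap, at log2 folds of 2.49 ± 0.27 (adjusted p = 1.02e-05) and 3.83 ± 0.54 (adjusted p = 8.60e-05). Cpt1a, the entry step of mitochondrial oxidation, rose at a log2 fold of 0.85 (0.67 to 0.78, adjusted p = 0.0632 to 0.0907, without any 1 of chow 3, chow 4 and MCD 4), Vnn1, a pantetheinase, at 2.46 and Crat, carnitine acetyltransferase, at 1.49. Acot1, a cytosolic thioesterase, had 0.114, 0.219, 0 and 0 CPM on chow and 9.39, 11.4, 11.1 and 3.04 CPM on MCD. Its chow level is 3 counts in the 4 libraries together, so no fold is given. Acadl, a mitochondrial acyl-CoA dehydrogenase, fell at a log2 fold of -0.78, and Angptl4, a secreted lipase inhibitor, at -1.66. Over the list 7 of 31 tested members rose and 9 fell (7 and 10 without the doubtful libraries), with a median log2 difference -0.03 (0.06 with upper quartile factors and 0.67 without scaling factors, with 15 called higher and 1 lower).

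Most apolipoprotein genes fell, but Apob did not pass the test. Of 13 apolipoprotein genes and editing factors 9 fell and 0 rose. Apoa4, of lymph and high density lipoprotein, had 1651, 1502, 1189 and 518 CPM on chow and 116, 131, 189.95 and 153 CPM on MCD. Chow library 4 was the lowest on chow and still far above MCD, at a log2 fold of -3.04 ± 0.41 (adjusted p = 6.32e-05). Apoc1, Apoc2 and Apoc3, which regulate triglyceride clearance, fell at log2 folds of -2.59, -2.49 and -2.59. Apob, the core protein of very low density lipoprotein, had 4511 ± 656 CPM on chow and 5074 ± 1571 CPM on MCD (adjusted p = 0.632), and Mttp, which loads it with lipid, had 203 ± 23.4 CPM on chow and 193 ± 29.5 CPM on MCD (adjusted p = 0.686). Lpl, a lipase that adult hepatocytes hardly make, rose from 6.76 ± 0.361 to 58.6 ± 10.4 CPM, at a log2 fold of 3.11 ± 0.26 (adjusted p = 1.06e-06), and the hepatic lipase Lipc fell at -1.44. Over the lipoprotein list 3 of 25 tested members rose and 13 fell (2 and 13 without the doubtful libraries), with a median log2 difference -0.92 (-0.19 without scaling factors, with 8 called higher and 7 lower).

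In cholesterol synthesis and uptake 2 of 26 tested members rose and 4 fell (4 and 4 without the doubtful libraries), with a median log2 difference 0.12 (0.86 without scaling factors, with 13 called higher and 2 lower). The 2 that rose did so at least 2-fold. Tm7sf2 and Ebp, enzymes of sterol synthesis, fell at log2 folds of -2.17 and -1.48.

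In bile acid metabolism the first enzyme rose and later ones fell. Cyp7a1, the rate-limiting enzyme of bile acid synthesis, had 123, 70.97, 70.7 and 56.9 CPM on chow and 168, 130.1, 176 and 432 CPM on MCD. The lowest MCD value lay just above the highest chow value, and the log2 fold was 1.49 ± 0.40 (adjusted p = 0.00815, with 0.98, adjusted p = 0.0448, without MCD library 4). Baat, which conjugates bile acids, and Amacr, a racemase of their side chain, fell at log2 folds of -1.83 (-1.07, adjusted p = 0.0135, without chow library 4) and -1.77 (-1.09, adjusted p = 0.00248, without chow library 4), and Nr1h4, the bile acid receptor FXR, fell from 115 ± 26.2 to 53.9 ± 17.3 CPM. Nr0b2, the repressor FXR induces, had 29.5 ± 26.2 CPM on chow and 19.6 ± 11.98 CPM on MCD (adjusted p = 0.482, at a log2 difference of -0.57, and 0.31, adjusted p = 0.735, without the doubtful libraries). Together 2 of 13 tested members rose and 5 fell (3 and 4 without the doubtful libraries), with a median log2 difference -0.50 (0.27 without scaling factors, with 2 called higher and 2 lower).

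Most tested efflux pump genes rose and most tested uptake carrier genes fell. Of the ATP-binding cassette efflux pumps 9 of 15 tested members rose and 1 fell, with a median log2 difference 1.16. The counts were the same without the doubtful libraries, but the member that fell was then a different one. Abcc3, a basolateral pump for conjugates, had 2.73, 3.06, 3.27 and 3.62 CPM on chow and 22.9, 23.8, 47.5 and 39.6 CPM on MCD. Abcc4, another basolateral pump, had 3.07, 3.06, 3.07 and 1.21 CPM on chow and 7.02, 12.2, 10.4 and 27.7 CPM on MCD. They rose without overlap at log2 folds of 3.40 ± 0.34 (adjusted p = 6.04e-06) and 2.45 ± 0.38 (adjusted p = 1.80e-04). Abcb1a, Abcb4 (the phosphatidylcholine floppase) and Abcc1 rose at log2 folds of 2.15, 1.46 and 1.95, and the cholesterol exporters Abca1 and Abcg1 at 1.15 and 1.01. The canalicular bile salt pump Abcb11 had 626 ± 198 CPM on chow and 447 ± 111 CPM on MCD (adjusted p = 0.11). Of the uptake carriers 0 of 11 tested members rose and 7 fell (the same counts without the doubtful libraries), with a median log2 difference -1.02 (-0.24 without scaling factors, with 3 called higher and 4 lower). Slc10a1, the sodium-dependent bile acid importer, had 705, 838, 656 and 938 CPM on chow and 188, 127, 180.5 and 224 CPM on MCD. All MCD libraries were lower, at a log2 fold of -2.12 ± 0.25 (adjusted p = 2.00e-05), and Slco1b2, an organic anion importer, fell at -1.41.

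Drug-metabolising cytochromes P450 mostly fell. Over the 4 xenobiotic and fatty acid families 6 of 32 tested members rose and 18 fell (6 and 17 without the doubtful libraries), with a median log2 difference -0.82 (-0.11 without scaling factors, with 9 called higher and 9 lower). Cyp2e1, which oxidises ethanol and other small molecules around the central vein, went the other way, with 590.0, 855, 459.6 and 981 CPM on chow and 2640.5, 3772, 3678 and 2726 CPM on MCD. The lowest MCD library was above the highest chow library, at a log2 fold of 2.15 ± 0.26 (adjusted p = 2.19e-05). Reads are shared among close copies in the Cyp2c, Cyp2d and Cyp3a families, so single values there are uncertain. Of conjugating enzymes 4 of 32 tested members rose and 13 fell (6 and 14 without the doubtful libraries), with a median log2 difference -0.93 (-0.17 without scaling factors, with 10 called higher and 11 lower). Sult1e1, the estrogen sulfotransferase, had 1647, 552, 1069 and 1560.2 CPM on chow and 0, 0, 0 and 0.0552 CPM on MCD. The MCD level is 1 count in the 4 libraries together, so no fold is given. Sult2a1, which sulfates bile acids and steroids, had 1405, 1534, 1728 and 3911 CPM on chow and 139, 40.8, 59.9 and 79.8 CPM on MCD. The highest chow value was in the doubtful chow 4, the groups did not overlap, and the log2 fold was -4.75 ± 0.55 (adjusted p = 1.72e-05), with -5.78 for its close copy Sult2a2. Gsta1 and Gsta5, glutathione transferases, fell at log2 folds of -2.69 (-1.74, adjusted p = 0.00229, without chow library 4) and -2.18, and Gstm3 rose at 2.84.

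Most genes with sex-biased levels in rat liver fell, those of the male type and those of the female type. Of the list 0 of 10 tested members rose and 8 fell (the same counts without the doubtful libraries), with a median log2 difference -3.24. Cyp2c11, the male-type steroid hydroxylase, had 1812, 718, 949 and 3433 CPM on chow and 246, 433, 138 and 247 CPM on MCD. Cyp2c12, the female-type one, had 504, 1223, 973 and 1065 CPM on chow and 205, 59.1, 77.5 and 42.1 CPM on MCD. Both were lower in every MCD library, at log2 folds of -2.70 ± 0.51 (adjusted p = 8.43e-04) and -3.29 ± 0.44 (adjusted p = 4.99e-05). These genes answer to the pattern of growth hormone release in rats. In that pathway Socs2, a feedback inhibitor, fell at a log2 fold of -2.16 (-1.82, adjusted p = 0.0582, without MCD library 4). Igf1, the circulating growth factor made under growth hormone, had 1871, 1656, 1681 and 583 CPM on chow and 278, 247, 290.2 and 237 CPM on MCD, and Igfals, its carrier subunit, fell at a log2 fold of -2.35. The Igf1 groups did not overlap, at a log2 fold of -2.46 ± 0.34 (adjusted p = 6.88e-05). Igfbp1 and Igfbp2, binding proteins that rise in fasting, rose at log2 folds of 2.86 and 3.46 (7.16, adjusted p = 5.20e-05, without the doubtful libraries and 7.23, adjusted p = 2.42e-05, without chow library 4). On the whole axis 3 of 19 tested members rose and 7 fell (6 and 6 without the doubtful libraries), with a median log2 difference -0.12 (0.59 without scaling factors, with 9 called higher and 3 lower). Without the doubtful libraries that median was 0.06.

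Among nuclear receptors 6 of 24 tested members rose and 3 fell (6 and 4 without the doubtful libraries, and 3 rising without MCD library 2), with a median log2 difference -0.23 (0.50 without scaling factors, with 12 called higher and 0 lower). Without the doubtful libraries that median was 0.1. Besides Ppara, Ahr, the dioxin receptor, and Nr1i3, the xenobiotic receptor CAR, rose at log2 folds of 2.11 and 1.78 (2.96, adjusted p = 1.01e-04, without the doubtful libraries and 1.495 to 1.65, adjusted p = 0.0523 to 0.0588, without any 1 of chow 1, chow 2, chow 3 and MCD 2 and 3.07, adjusted p = 5.36e-05, without chow library 4). Nr3c1, the glucocorticoid receptor, fell at a log2 fold of -0.999. Of the liver-enriched transcription factors 2 of 14 tested members rose and 2 fell (2 and 3 without the doubtful libraries), with a median log2 difference -0.34 (0.38 without scaling factors). Hnf4a, the factor that holds hepatocyte identity, had 424 ± 54.4 CPM on chow and 304 ± 66.2 CPM on MCD (adjusted p = 0.0962).

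Most plasma proteins made by hepatocytes fell. Of the carriers 0 of 18 tested members rose and 15 fell (the same counts without the doubtful libraries), with a median log2 difference -1.01 (-0.30 without scaling factors, with 0 called higher and 4 lower). Alb, albumin, had 147569, 167238, 148474 and 125174 CPM on chow and 66749.9, 73199, 65854 and 77848 CPM on MCD. Ttr, the thyroid hormone and retinol carrier transthyretin, had 20219, 18055, 18900.2 and 17243 CPM on chow and 6346, 3950.3, 4459 and 3410.5 CPM on MCD. In both every MCD library was below every chow library, at log2 folds of -1.05 ± 0.18 (adjusted p = 3.88e-04) and -2.03 ± 0.26 (adjusted p = 3.41e-05). Serpina6, which carries corticosteroids, fell from 659 ± 185 to 64.5 ± 16.3 CPM, at a log2 fold of -3.35 ± 0.23 (adjusted p = 1.66e-07). Beside them, of the 5 hepatocyte markers 2 fell and 0 rose, and none was at 0 in the 8 libraries, and the part of hepatocyte number was not tested. Tf, transferrin, had 30129 ± 6735 CPM on chow and 24376 ± 4289 CPM on MCD (adjusted p = 0.287). Of complement and coagulation genes 2 of 35 tested members rose and 20 fell (2 and 24 without the doubtful libraries), with a median log2 difference -0.76 (-0.04 without scaling factors, with 5 called higher and 5 lower). C6 of the membrane attack complex fell at a log2 fold of -2.49, F2, prothrombin, at -1.41 and Serpinc1, antithrombin, at -1.32, while Kng1, a kininogen, and F5, coagulation factor V, rose at 2.32 (1.98, adjusted p = 0.0523, without MCD library 4) and 1.08. Acute phase genes moved both ways, with 6 of 20 tested members rising and 7 falling (5 and 7 without the doubtful libraries) and a median log2 difference 0.15 (0.90 without scaling factors, with 10 called higher and 1 lower). Lbp, which binds bacterial lipopolysaccharide, rose from 62.1 ± 23.2 to 276 ± 87.4 CPM, and the fibrinogen chains Fga, Fgb and Fgg fell at log2 folds of -0.80, -0.97 and -1.02 (-0.90, adjusted p = 0.0554, without MCD library 2 and -0.87, adjusted p = 0.0534, without MCD library 3).

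Many genes of glucose and nitrogen metabolism fell. For glucose 4 of 24 tested members rose and 11 fell (5 and 9 without the doubtful libraries), with a median log2 difference -0.60 (0.14 without scaling factors, with 7 called higher and 5 lower). Fbp1, a gluconeogenic phosphatase, fell from 615 ± 153 to 246 ± 46.1 CPM, Khk, ketohexokinase, at a log2 fold of -1.64 and Ldha, lactate dehydrogenase, at -1.33, while Pck2, the mitochondrial carboxykinase, rose at 1.56. The cytosolic Pck1 had 1484 ± 283 CPM on chow and 993 ± 302 CPM on MCD (adjusted p = 0.131, at a log2 difference of -0.58, and -0.38, adjusted p = 0.348, without the doubtful libraries). For the urea cycle and ammonia 3 of 15 tested members rose and 8 fell (3 and 6 without the doubtful libraries, and 5 falling without MCD library 2), with a median log2 difference -0.54 (0.20 without scaling factors, with 5 called higher and 3 lower). Otc and Arg1 of the cycle fell at log2 folds of -1.79 (-1.16, adjusted p = 0.011, without chow library 4) and -1.17, and Cps1, its first enzyme, had 1495 ± 674 CPM on chow and 1729 ± 667 CPM on MCD (adjusted p = 0.728, at a log2 difference of 0.21, and 0.73, adjusted p = 0.237, without the doubtful libraries). For amino acid breakdown 1 of 35 tested members rose and 22 fell (2 and 21 without the doubtful libraries), with a median log2 difference -0.87 (-0.13 without scaling factors, with 4 called higher and 8 lower). Oat, ornithine aminotransferase, had 148, 226, 192 and 427 CPM on chow and 12.7, 10.7, 30.7 and 20.8 CPM on MCD. Prodh2, which oxidises hydroxyproline, had 264, 239.7, 244 and 599 CPM on chow and 55.5, 33.4, 45.2 and 35.8 CPM on MCD. No library overlapped in either, and the log2 folds were -3.73 ± 0.38 (adjusted p = 6.50e-06) and -2.99 ± 0.31 (adjusted p = 7.08e-06).

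With all libraries most periportal genes fell and most pericentral genes rose or did not pass the test. Periportal genes lie near the incoming blood and pericentral genes near the central vein, where Wnt signals hold them. Of 9 periportal genes 7 fell and 1 rose, and of 13 pericentral genes 7 rose and 2 fell. Over both zones 8 of 22 tested members rose and 9 fell (10 and 7 without the doubtful libraries). The median log2 difference was -0.61 (0.14 without scaling factors, with 10 called higher and 5 lower). Rhbg, an ammonium transporter, had 5.68, 6.89, 4.16 and 14.2 CPM on chow and 55.8, 44.1, 28.8 and 32.5 CPM on MCD. Axin2, a direct Wnt target, had 4.88, 4.81, 4.95 and 4.95 CPM on chow and 5.15, 11.4, 15.4 and 10.3 CPM on MCD. Both were higher in every MCD library, though MCD 1 lay close to chow in Axin2, and they rose at log2 folds of 2.40 ± 0.41 (adjusted p = 3.94e-04) and 1.11 ± 0.27 (adjusted p = 0.00443). Glul, glutamine synthetase, rose at a log2 fold of 0.67. The Wnt feedback genes Rnf43 and Nkd1 rose at log2 folds of 1.11 (0.55 to 1.11, adjusted p = 0.0599 to 0.19, without any 1 of chow 1, chow 3, chow 4 and MCD 3) and 1.09, and the glutamate carrier Slc1a2 at 1.39. The pericentral genes that fell were Oat and Rgn, the calcium-binding protein regucalcin, at log2 folds of -3.73 and -1.20. On the periportal side Hal, histidine lyase, fell at a log2 fold of -2.30, and Gls2, liver glutaminase, at -1.67 (-1.11, adjusted p = 0.0349, without the doubtful libraries). Ass1, argininosuccinate synthase, fell at a log2 fold of -0.98 (-0.56, adjusted p = 0.136, without the doubtful libraries and -0.68 to -0.91, adjusted p = 0.0551 to 0.0761, without any 1 of chow 4, MCD 2 and MCD 3). Sds, serine dehydratase, had 28.5, 2.41, 4.16 and 157 CPM on chow and 2.36, 1.26, 1.96 and 3.48 CPM on MCD. Its chow values spread widely with the highest in chow 4, chow 2 lay within the MCD range, and the log2 fold was -4.39 ± 1.07 (adjusted p = 0.00464, with -2.36, adjusted p = 0.0682, without the doubtful libraries and -2.35, adjusted p = 0.0343, without chow library 4).

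**Figure D3:**
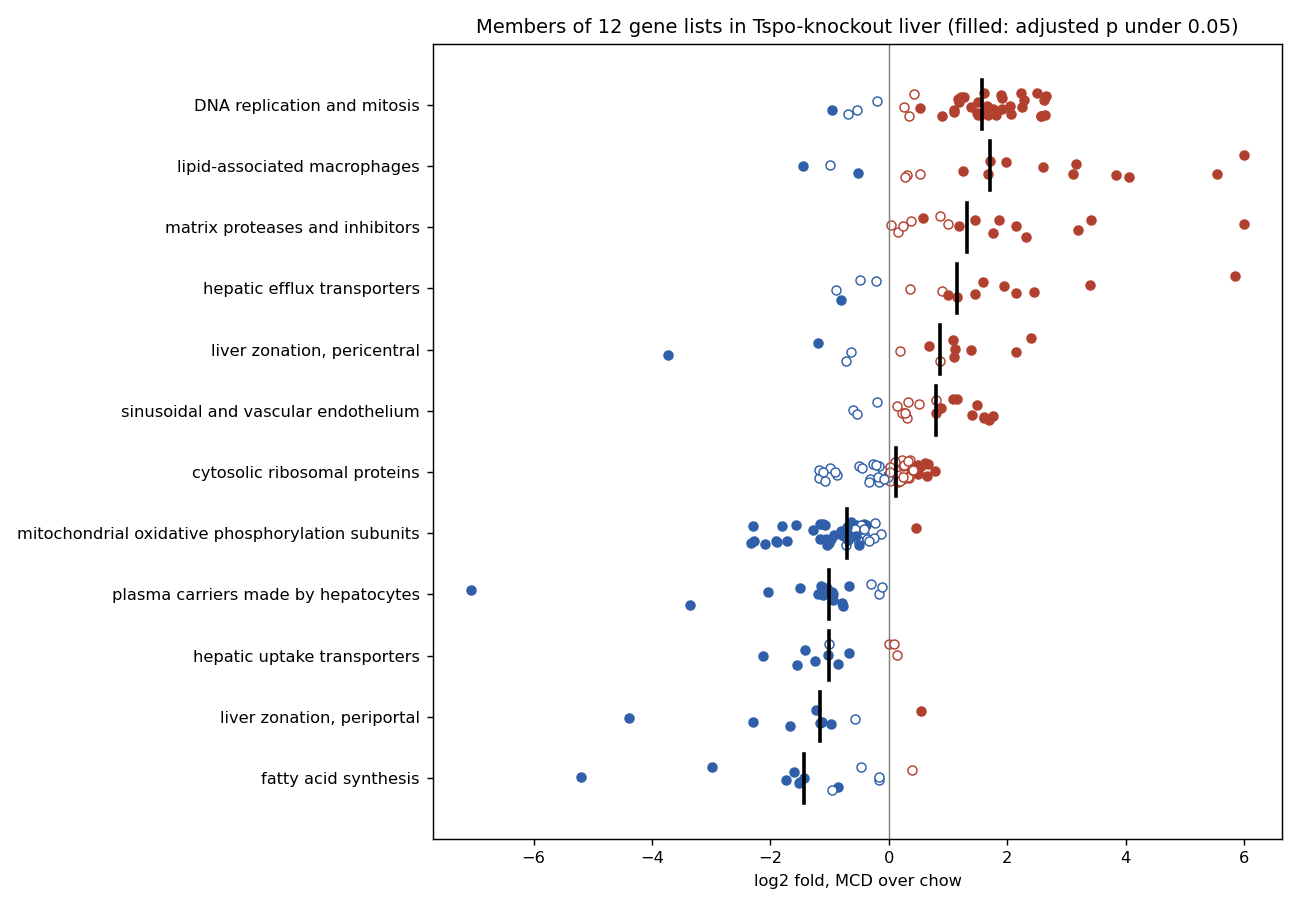
Log2 fold of MCD over chow for every tested member of 12 gene lists, with filled points for members past the test, open points for the others, and a vertical bar at each list's median. Members of DNA replication and mitosis centre on 1.57 and mitochondrial subunits on -0.71, while the 2 zones of the liver centre on 0.86 (pericentral) and -1.17 (periportal).

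Part of the amino acid shortage response rose. In the integrated stress response, in which ATF4 induces genes for amino acid supply, 9 of 28 tested members rose and 3 fell (8 and 3 without the doubtful libraries), with a median log2 difference 0.29 (1.01 without scaling factors, with 19 called higher and 0 lower). Asns, asparagine synthetase, had 2.95, 2.62, 4.06 and 0.268 CPM on chow and 18.8, 21.2, 24.1 and 38.6 CPM on MCD. Slc7a1, a cationic amino acid importer, had 0.227, 0.437, 0.594 and 0 CPM on chow and 2.29, 4.98, 4.51 and 7.23 CPM on MCD. Neither overlapped, and the log2 folds were 3.34 ± 0.53 (adjusted p = 2.12e-04) and 3.80 ± 0.62 (adjusted p = 2.81e-04). Trib3, a pseudokinase induced by ATF4, rose from 2.69 ± 1.37 to 8.71 ± 4.44 CPM. Atf4 itself had 194, 195, 201 and 167 CPM on chow and 125, 91.3, 124 and 91.6 CPM on MCD. Every MCD library was lower, at a log2 fold of -0.81 ± 0.21 (adjusted p = 0.00689). Ddit3, the stress factor CHOP, had 8.67 ± 2.27 CPM on chow and 5.705 ± 0.684 CPM on MCD (adjusted p = 0.0662, at a log2 difference of -0.61, and -0.74, adjusted p = 0.0361, without chow library 4). Fgf21, a stress hormone of the liver, had 10.4 ± 5.704 CPM on chow and 6.696 ± 2.47 CPM on MCD (adjusted p = 0.332, at a log2 difference of -0.65, and -1.08, adjusted p = 0.102, without the doubtful libraries). In the endoplasmic reticulum 2 of 20 tested members rose and 8 fell (2 and 9 without the doubtful libraries, and 4 to 5 falling without any of chow library 3, MCD library 2, MCD library 3 and MCD library 4), with a median log2 difference -0.35 (0.34 without scaling factors, with 5 called higher and 1 lower). The sensors Atf6 and Ern1 rose at log2 folds of 1.68 and 1.61. Of NRF2 targets, the antioxidant response genes, 7 of 21 tested members rose and 3 fell (6 and 3 without the doubtful libraries), with a median log2 difference 0.19 (0.91 without scaling factors, with 13 called higher and 1 lower). Nqo1 and Hmox1 did not pass the test with all libraries, Nqo1 with an adjusted p of 0.116 and Hmox1 with one of 0.144, at a log2 difference of -0.73, and -0.98, adjusted p = 0.0445, without chow library 4. Akr1b8 and Gpx2 rose at log2 folds of 3.19 and 3.14 (5.31, adjusted p = 1.80e-04, without chow library 1).

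Most nuclear genes for the respiratory chain fell. Of the subunits 1 of 48 tested members rose and 35 fell (1 and 39 without the doubtful libraries, and 22 falling without chow library 4), with a median log2 difference -0.71 (0.02 without scaling factors, with 4 called higher and 8 lower). Ndufa6 of complex I had 251, 203, 225 and 1551 CPM on chow and 234, 63.5, 76.1 and 68.3 CPM on MCD. Cox7b of complex IV had 275, 191, 229 and 1828 CPM on chow and 292, 80.1, 79.7 and 68.8 CPM on MCD. In both genes the doubtful chow 4 was far above the other chow libraries. The doubtful MCD 1 lay among those others in Ndufa6 and just above them in Cox7b. The other 3 MCD libraries were below all chow libraries in both genes, and the log2 folds were -2.34 ± 0.62 (adjusted p = 0.00748, with -1.03, adjusted p = 0.053, without chow library 4) and -2.28 ± 0.67 (adjusted p = 0.0134, with -0.83, adjusted p = 0.15, without chow library 4). Ndufs1, the largest subunit of complex I, rose at a log2 fold of 0.46 (0.33 to 0.49, adjusted p = 0.0592 to 0.125, without any 1 of chow 1, chow 2, chow 4, MCD 2, MCD 3 and MCD 4). Many subunits have short messages, and 11 of the 23 other short messages of the length index fell while 0 rose. With the within-group index as a covariate 1 subunit rose and 41 fell, and the part of message length between the diets was not tested. Among genes for cytosolic ribosomal proteins, also short, 8 of 52 tested members rose and 0 fell (5 and 0 without the doubtful libraries, and 4 rising without MCD library 3), with a median log2 difference 0.12 (0.83 without scaling factors, with 39 called higher and 0 lower). Without the doubtful libraries that median was -0.05.

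Genes of lipid-associated macrophages rose and some Kupffer cell genes fell. Lipid-associated macrophages gather around fat-laden hepatocytes, and of their genes 11 of 17 tested members rose and 2 fell (12 and 2 without the doubtful libraries), with a median log2 difference 1.72. Trem2, the lipid receptor of these cells, had 0, 0.109, 0.297 and 0.134 CPM on chow and 11.4, 7.79, 5.602 and 3.15 CPM on MCD. Spp1, osteopontin, had 9.65, 3.499, 3.27 and 2.68 CPM on chow and 29.1, 42.4, 43.8 and 54.99 CPM on MCD. Both were higher in every MCD library, at log2 folds of 5.54 ± 0.79 (adjusted p = 8.98e-05) and 3.15 ± 0.55 (adjusted p = 4.74e-04). Lgals3, Cd9 and Cd63 rose at log2 folds of 1.67, 1.98 and 1.71, and the summed level of the 4 defining markers, all of which rose, was 10.7 to 26.8 CPM on chow and 183 to 303 CPM on MCD. Of general macrophage genes 7 of 16 tested members rose and 1 fell (8 and 1 without the doubtful libraries), with a median log2 difference 0.79 (1.49 without scaling factors, with 15 called higher and 0 lower). The lysozyme gene Lyz2 had 30.9, 18.5, 53.8 and 29.99 CPM on chow and 245, 137, 80.97 and 90.5 CPM on MCD. All MCD libraries were higher, MCD 1 most, at a log2 fold of 2.05 ± 0.44 (adjusted p = 0.00208). Kupffer cell genes, which mark the resident macrophages of the liver, gave 0 of 12 tested members rising and 4 falling (1 and 4 without the doubtful libraries), with a median log2 difference 0.13. That median was -0.07 without the doubtful libraries and 0.83 without scaling factors, with 6 called higher and 3 lower in the latter. Clec4f, a lectin found in Kupffer cells, had 238, 181, 268 and 210.1 CPM on chow and 94.6, 93.9, 30.5 and 60.3 CPM on MCD. Marco, a scavenger receptor, had 76.9, 66.3, 100.2 and 25.8 CPM on chow and 12.4, 10.7, 5.31 and 9.83 CPM on MCD. Both were lower in all 4 MCD libraries, at log2 folds of -1.68 ± 0.38 (adjusted p = 0.00261) and -2.81 ± 0.61 (adjusted p = 0.00212). The 5 Kupffer cell markers in the table summed to 384 to 551 CPM on chow and 139 to 287 CPM on MCD (2 fell, 0 rose and 0 were at 0), and the 4 general macrophage markers to 112 to 183 CPM on chow and 198 to 287 CPM on MCD (1 rose and 0 fell). The part of cell number in these results was not tested. Vsig4, another Kupffer cell gene, had 19.4 ± 11.9 CPM on chow and 31.5 ± 20.9 CPM on MCD (adjusted p = 0.268, at a log2 difference of 0.69, and 0.23, adjusted p = 0.762, without the doubtful libraries).

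Of the lysosome 6 of 30 tested members rose and 5 fell (9 and 5 without the doubtful libraries, and 2 rising without any of MCD library 2, MCD library 3 and MCD library 4), with a median log2 difference 0.16 (0.88 without scaling factors, with 23 called higher and 0 lower). Gla, an alpha-galactosidase, fell at a log2 fold of -0.86. Of MHC class II genes 4 of 8 tested members rose and 0 fell (3 and 0 without the doubtful libraries), with a median log2 difference 1.01, and their regulator Ciita rose at 1.31. The summed T cell markers were 2.41 to 3.86 CPM on chow and 2.60 to 2.99 CPM on MCD, and of lymphocyte genes 1 of 10 tested members rose and 1 fell (the same counts without the doubtful libraries). Neutrophil markers summed to 1.82 to 8.97 CPM on chow and 1.09 to 2.50 CPM on MCD. Of the longer list of neutrophil genes 1 of 4 tested members rose and 1 fell (the same counts without the doubtful libraries). The genes of that list summed to 6.12 to 19.5 CPM on chow and 4.15 to 87.0 CPM on MCD. Among chemokine, adhesion and NF-kB genes 8 of 25 tested members rose and 5 fell (7 and 4 without the doubtful libraries, and 3 falling without MCD library 4), with a median log2 difference 0.41 (1.10 without scaling factors, with 14 called higher and 2 lower). Cxcl16, a scavenger and chemokine, and Ccr1, a chemokine receptor, rose at log2 folds of 2.51 and 2.28, and Cxcl12, a chemokine of stromal cells, fell at -1.78. Ccl2, the monocyte chemokine, had 1.67 ± 1.17 CPM on chow and 1.38 ± 0.634 CPM on MCD (adjusted p = 0.609, at a log2 difference of -0.30, and -0.65, adjusted p = 0.311, without the doubtful libraries), and Il1b had 4.31 ± 1.29 CPM on chow and 2.298 ± 0.910 CPM on MCD (adjusted p = 0.0666, at a log2 difference of -0.92, and -1.20, adjusted p = 0.0351, without MCD library 3 and -1.07, adjusted p = 0.0483, without chow library 4). Interferon-stimulated genes gave 3 of 29 tested members rising and 6 falling (3 and 7 without the doubtful libraries), with a median log2 difference 0.02 (-0.01 with relative log expression factors and 0.76 without scaling factors, with 14 called higher and 3 lower), and Ifi27 fell from 1011 ± 1013 to 184 ± 97.3 CPM, at a log2 fold of -2.46 (-1.46, adjusted p = 0.00434, without chow library 4).

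Genes of matrix turnover rose, and some collagens did. Of proteases and inhibitors 10 of 16 tested members rose and 0 fell (11 and 0 without the doubtful libraries), with a median log2 difference 1.31. Timp1, the inhibitor of matrix metalloproteinases, had 3.18, 2.08, 3.37 and 1.87 CPM on chow and 14.5, 10.5, 11.3 and 16.2 CPM on MCD. Plau, urokinase, had 3.41, 4.16, 3.76 and 0.536 CPM on chow and 7.51, 14.8, 9.46 and 11.98 CPM on MCD. The groups did not overlap in either, at log2 folds of 2.31 ± 0.30 (adjusted p = 4.34e-05) and 1.86 ± 0.42 (adjusted p = 0.00265). Collagens gave 5 of 14 tested members rising and 0 falling (4 and 0 without the doubtful libraries, and 3 rising without any of MCD library 2 and chow library 4), with a median log2 difference 0.78 (1.495 without scaling factors, with 12 called higher and 0 lower). The fibrillar chains Col1a1 and Col3a1 did not pass the test: Col1a1 had 11.1, 10.8, 17.2 and 3.88 CPM on chow and 20.3, 51.2, 37.3 and 24.8 CPM on MCD (adjusted p = 0.0765). Its 4 MCD values were nevertheless all above its chow values. Col3a1 had 193 ± 43.9 CPM on chow and 297 ± 57.8 CPM on MCD (adjusted p = 0.141). The basement membrane chain Col4a1 and the fibril regulator Col5a1 rose at log2 folds of 1.21 and 1.27. Of other matrix genes 13 of 24 tested members rose and 1 fell (9 and 0 without the doubtful libraries), with a median log2 difference 0.94. Fbn1, the fibrillin of elastic microfibrils, and Loxl1 and Loxl2, which crosslink collagen and elastin, rose at log2 folds of 1.66, 2.33 and 1.30.

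Stellate cells, which store vitamin A and make scar when activated, were followed with both kinds of marker. In the list 8 of 22 tested members rose and 1 fell (9 and 1 without the doubtful libraries), with a median log2 difference 0.46 (1.22 without scaling factors, with 17 called higher and 0 lower). Reln and Hgf, made by quiescent cells, rose at log2 folds of 1.51 and 2.06, and Lrat, which esterifies retinol, had 33.6 ± 0.975 CPM on chow and 41.2 ± 10.4 CPM on MCD (adjusted p = 0.369). Of the activated markers Acta2, smooth muscle actin, had 3.18, 0.656, 1.68 and 1.21 CPM on chow and 2.43, 6.58, 8.51 and 9.72 CPM on MCD. The doubtful MCD 1 lay within the chow range and the other 3 MCD libraries above it, at a log2 fold of 2.01 ± 0.47 (adjusted p = 0.00342). In the same group Vim had an adjusted p of 0.0967 and Tagln one of 0.124, at a log2 difference of 0.69, and 1.16, adjusted p = 0.013, without chow library 1. The 5 stellate cell markers, of which 2 rose and none was at 0, summed to 73.2 to 77.1 CPM on chow and 80.5 to 168 CPM on MCD, and their part was not tested. Of profibrotic signals 7 of 19 tested members rose and 1 fell (11 and 1 without the doubtful libraries, and 4 rising without MCD library 3), with a median log2 difference 0.89 (1.60 without scaling factors, with 15 called higher and 0 lower). Ctgf, connective tissue growth factor, had 3.41, 3.83, 3.27 and 4.42 CPM on chow and 12.5, 7.73, 22.04 and 23.5 CPM on MCD. Tgfbr2, a receptor of transforming growth factor beta, had 12.6, 20.4, 21.1 and 15.3 CPM on chow and 32.4, 61.7, 48.8 and 75.1 CPM on MCD. Each MCD library was above each chow library, at log2 folds of 2.14 ± 0.37 (adjusted p = 4.28e-04) and 1.65 ± 0.38 (adjusted p = 0.00299), and Tgfb1, the ligand, rose at 0.98 (0.71 to 1.08, adjusted p = 0.0543 to 0.104, without any 1 of chow 1, chow 2, chow 4, MCD 2, MCD 3 and MCD 4).

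Endothelial and bile duct genes rose where they changed. For endothelium 10 of 21 tested members rose and 0 fell (the same counts without the doubtful libraries), with a median log2 difference 0.79 (1.49 without scaling factors, with 19 called higher and 0 lower). Cdh5, the endothelial cadherin, and Vwf, von Willebrand factor, rose at log2 folds of 1.76 and 1.61, and so did Stab2, a scavenger receptor of sinusoidal cells, at 1.61. The 5 endothelial markers, 2 of which rose, summed to 113 to 158 CPM on chow and 118 to 239 CPM on MCD, and Pecam1, one of the adhesion proteins of these cells, had 11.1 ± 2.09 CPM on chow and 13.4 ± 2.56 CPM on MCD (adjusted p = 0.244). For bile ducts 9 of 17 tested members rose and 0 fell (7 and 1 without the doubtful libraries), with a median log2 difference 1.11 (1.88 without scaling factors, with 14 called higher and 0 lower). Epcam, an adhesion protein of bile duct and progenitor cells, had 15.3, 12.2, 14.7 and 10.3 CPM on chow and 39.3, 32.5, 43.1 and 50.4 CPM on MCD. Bicc1, an RNA-binding protein of duct cells, had 1.36, 0.437, 0.495 and 0.134 CPM on chow and 2.36, 6.93, 8.95 and 4.803 CPM on MCD. Each MCD library exceeded each chow library, at log2 folds of 1.65 ± 0.17 (adjusted p = 7.14e-06) and 3.20 ± 0.49 (adjusted p = 1.69e-04). The 2 bile duct markers in the table (1 rose and 0 fell) summed to 13.5 to 20.2 CPM on chow and 36.2 to 58.9 CPM on MCD, and the part of duct cell number was not tested. Krt19, a duct keratin, had 2.84 ± 1.59 CPM on chow and 5.56 ± 2.15 CPM on MCD (adjusted p = 0.116).

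Genes of cell division rose. Of replication and mitosis genes 32 of 39 tested members rose and 1 fell (31 and 1 without the doubtful libraries), with a median log2 difference 1.57. Of these 13 of 19 replication genes and 19 of 20 mitosis genes rose. Mcm6, of the replicative helicase, had 2.499, 2.08, 1.49 and 0.268 CPM on chow and 7.65, 9.79, 12.1 and 11.1 CPM on MCD. Mcm2, of the same ring, had 3.75, 4.48, 5.15 and 6.43 CPM on chow and 17.5, 13.9, 16.1 and 13.03 CPM on MCD. Neither overlapped between the diets, at log2 folds of 2.65 ± 0.35 (adjusted p = 5.42e-05) and 1.61 ± 0.22 (adjusted p = 6.21e-05). Top2a, the topoisomerase that untangles chromosomes, had 2.499, 1.42, 1.98 and 0.803 CPM on chow and 4.31, 9.45, 11.9 and 14.7 CPM on MCD. Mki67, the Ki-67 antigen, had 4.77, 4.37, 5.55 and 1.34 CPM on chow and 7.02, 27.7, 30.7 and 35.8 CPM on MCD. These rose at log2 folds of 2.57 ± 0.39 (adjusted p = 1.51e-04) and 2.64 ± 0.48 (adjusted p = 6.14e-04), again with every MCD library higher. Cdk1, the mitotic kinase, rose at a log2 fold of 1.39, Cdc20, an activator of the anaphase-promoting complex, at 1.91, the survivin gene Birc5 at 1.67 and the spindle protein Prc1 at 2.06. Tyms, thymidylate synthase, and Gins1, of the helicase complex, rose at log2 folds of 1.51 and 1.16 (1.09, adjusted p = 0.0634, without the doubtful libraries and 0.99 to 1.15, adjusted p = 0.0516 to 0.0818, without any 1 of chow 2, chow 3, chow 4 and MCD 4), whereas Pcna, the polymerase clamp, had 16.7 ± 1.76 CPM on chow and 21.2 ± 5.99 CPM on MCD (adjusted p = 0.218).

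Short elements known from cell cycle promoters occur in some of these genes, whose promoters are shown because the genes rose together. RefSeq promoters of assembly GRCr8 were searched over 250 bases before to 50 after the start site, on both strands. The E2F element TTTNNCGC was in 11 of the 27 rising members with a promoter in that table (40.7%), in 12 of the 32 list members with one (37.5%), in 5.2% of all 27457 promoters and in 8.5% of the 8392 promoters of tested genes. The cell cycle homology element TTTGAA was in 12 of the 16 rising mitosis genes with a promoter (75.0%), in 12 of the 17 on the list (70.6%), in 18.1% of all promoters and in 11.7% of those of tested genes. The 100 bases before the start are printed 5′ to 3′, with these elements in capitals where they lie in them, and overlapping matches on the 2 strands joined:
Mcm2, chr4:122918095-122918194, minus strand: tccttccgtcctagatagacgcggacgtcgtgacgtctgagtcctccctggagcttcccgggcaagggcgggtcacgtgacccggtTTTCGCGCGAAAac
Gins1, chr3:160184820-160184919, plus strand: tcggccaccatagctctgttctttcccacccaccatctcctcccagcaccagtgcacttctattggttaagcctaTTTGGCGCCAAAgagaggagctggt
Tyms, chr9:120776084-120776183, minus strand: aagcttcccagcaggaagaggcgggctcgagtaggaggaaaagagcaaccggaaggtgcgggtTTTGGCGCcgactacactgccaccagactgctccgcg
Cdk1, chr20:19265193-19265292, plus strand: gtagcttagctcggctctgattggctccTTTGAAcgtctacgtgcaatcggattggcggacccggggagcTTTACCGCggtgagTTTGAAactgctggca
Cdc20, chr5:137255800-137255899, minus strand: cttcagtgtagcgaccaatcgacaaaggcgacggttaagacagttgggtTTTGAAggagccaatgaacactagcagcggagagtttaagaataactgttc
Top2a, chr10:84473094-84473193, minus strand: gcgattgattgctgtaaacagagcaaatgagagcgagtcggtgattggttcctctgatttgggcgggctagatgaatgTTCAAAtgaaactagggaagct
Birc5, chr10:103572046-103572145, plus strand: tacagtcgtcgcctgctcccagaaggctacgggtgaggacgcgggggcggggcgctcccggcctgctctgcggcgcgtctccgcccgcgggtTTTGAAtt
Prc1, chr1:143659381-143659480, plus strand: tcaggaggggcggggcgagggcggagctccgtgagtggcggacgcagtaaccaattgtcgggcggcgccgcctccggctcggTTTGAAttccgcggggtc
Mcm2, Gins1 and Tyms carry the E2F letters, Cdk1 carries both elements, and the other 4 carry the homology element close to the start. A match describes the letters and not a bound site.

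For the amino acid response the element TGATGNAA, the binding letters of ATF4 with a C/EBP partner, was in 2 of the 7 rising integrated stress genes with a promoter (28.6%), in 5 of the 21 list members with a promoter (23.8%), in 3.8% of all promoters and in 2.0% of those of tested genes. It was in 0 of the 4 rising serine and folate enzymes in this window. The 2 matches are shown for Trib3 and Slc7a1, which rose above, in the same format:
Trib3, chr3:161275534-161275633, minus strand: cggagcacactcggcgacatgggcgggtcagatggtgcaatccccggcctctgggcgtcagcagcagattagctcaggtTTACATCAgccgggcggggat
Slc7a1, chr12:11664388-11664487, plus strand: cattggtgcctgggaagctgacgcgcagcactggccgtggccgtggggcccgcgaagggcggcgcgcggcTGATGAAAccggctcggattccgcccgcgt
The antioxidant element TGACNNNGC was in 2 of the 6 rising NRF2 targets with a promoter (33.3%) and in 6 of the 17 list members with a promoter (35.3%). All promoters held it in 12.2% and those of tested genes in 14.9%, and the rising members did not hold it more often than the list as a whole. The PPAR element DR1, AGGTCA repeated after any 1 base, was in 0 of the 6 rising genes of the PPAR-alpha list with a promoter and in 0.1% of all promoters.

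Some brakes of the cell cycle rose too. Of p53 targets and cell cycle brakes 10 of 25 tested members rose and 5 fell (9 and 4 without the doubtful libraries, and 3 falling without MCD library 4), with a median log2 difference 0.15 (0.82 without scaling factors, with 15 called higher and 2 lower). Cdkn1a, the inhibitor p21, had 7.95, 10.5, 11.5 and 62.3 CPM on chow and 66.5, 77.9, 51.7 and 78.2 CPM on MCD. The doubtful chow 4 lay within the MCD range and the other 3 chow libraries far below it, at a log2 fold of 1.58 ± 0.49 (adjusted p = 0.0175, with 2.79, adjusted p = 5.11e-06, without the doubtful libraries and 2.78, adjusted p = 2.64e-06, without chow library 4). Ccnd1, cyclin D1, had 70.2, 86.7, 62.1 and 39.8 CPM on chow and 196, 194, 169 and 184 CPM on MCD. The groups did not overlap, at a log2 fold of 1.52 ± 0.30 (adjusted p = 0.00108). Phlda3 and Bbc3, p53 targets of the death pathway, fell at log2 folds of -1.83 and -1.56, and Mdm2, its feedback ligase, had 18.96 ± 1.97 CPM on chow and 19.8 ± 1.89 CPM on MCD (adjusted p = 0.732).

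Red blood cell transcripts fell. In this list 0 of 8 tested members rose and 7 fell (0 and 6 without the doubtful libraries), with a median log2 difference -3.44. Hbb, beta globin, had 950.02, 262, 986 and 3769 CPM on chow and 86.9, 43.8, 49.1 and 62.3 CPM on MCD, again highest in the doubtful chow 4. All MCD values were below all chow values, at a log2 fold of -4.62 ± 0.65 (adjusted p = 8.60e-05). Alas2, the first heme synthesis enzyme of red cell precursors, fell at a log2 fold of -3.99, while Alas1, the liver form, had 113 ± 36.6 CPM on chow and 199 ± 88.2 CPM on MCD (adjusted p = 0.0523, at a log2 difference of 0.81, and 0.81, adjusted p = 0.0233, without the doubtful libraries and 0.95, adjusted p = 0.046, without chow library 1 and 1.02, adjusted p = 0.0124, without MCD library 1). Globin messages in liver RNA come with blood, and how much blood each liver held was not measured. Of heme synthesis genes 1 of 13 tested members rose and 6 fell (3 and 6 without the doubtful libraries), with a median log2 difference -0.50 (0.22 without scaling factors, with 5 called higher and 2 lower). For iron 5 of 25 tested members rose and 5 fell (6 and 6 without the doubtful libraries), with a median log2 difference -0.04 (0.08 with upper quartile factors and 0.69 without scaling factors, with 13 called higher and 2 lower). Id1 and Bmp6, of the bone morphogenetic protein pathway that induces hepcidin, rose at log2 folds of 2.41 and 1.52, Hamp, hepcidin, at 0.88 (0.50, adjusted p = 0.179, without the doubtful libraries and 0.67 to 0.82, adjusted p = 0.0669 to 0.0827, without any 1 of chow 3, chow 4, MCD 1 and MCD 2), and Tfr2, the iron sensor, fell at -1.21.

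Several genes that glucocorticoids induce rose, and the count of clock genes that changed was larger without the doubtful libraries than with them. Of clock genes 1 of 14 tested members rose and 3 fell (4 and 3 without the doubtful libraries), with a median log2 difference -0.28 (0.46 without scaling factors). Dbp, a clock output that swings widely over the day, had 148, 102, 57.5 and 3.48 CPM on chow and 17.5, 6.07, 8.803 and 6.24 CPM on MCD. The doubtful chow 4 was below every MCD library while the other chow libraries were above, at a log2 fold of -3.01 ± 0.88 (adjusted p = 0.0134). Arntl, which peaks opposite to it, had 6.02, 7.87, 13.1 and 32.3 CPM on chow and 9.87, 26.3, 18.8 and 22.1 CPM on MCD (adjusted p = 0.547, at a log2 difference of 0.39, and 1.31, adjusted p = 0.0295, without the doubtful libraries), with the groups overlapping. The sources used here do not give the hour of sampling. Among glucocorticoid-responsive genes and metallothioneins 6 of 18 tested members rose and 3 fell (7 and 2 without the doubtful libraries), with a median log2 difference 0.88 (1.63 without scaling factors, with 10 called higher and 1 lower). Fkbp5, a chaperone of the steroid receptor, had 13.6, 15.5, 15.3 and 16.5 CPM on chow and 57.4, 68.8, 18.6 and 85.8 CPM on MCD. Per1, a clock gene that glucocorticoids induce, had 5.34, 10.8, 8.02 and 2.81 CPM on chow and 14.3, 26.3, 55.7 and 31.2 CPM on MCD. Both were higher in every MCD library, at log2 folds of 1.92 ± 0.32 (adjusted p = 2.93e-04) and 2.23 ± 0.58 (adjusted p = 0.00677).

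Genes known to work with the TSPO protein were followed because the genotype label names its gene. Of these 3 of 17 tested members rose and 5 fell (3 and 4 without the doubtful libraries), with a median log2 difference -0.24 (0.49 without scaling factors, with 8 called higher and 2 lower). Dbi, the acyl-CoA binding protein that is the endogenous ligand of TSPO, had 1629.6, 1223, 1518 and 4812 CPM on chow and 673, 225, 233 and 239.99 CPM on MCD. Its groups did not overlap, with the doubtful library of each group the highest in it, at a log2 fold of -2.74 ± 0.46 (adjusted p = 3.47e-04). Vdac1, the main anion channel of the outer mitochondrial membrane, had 182 ± 51.4 CPM on chow and 140.5 ± 19.4 CPM on MCD (adjusted p = 0.115), and Fdx1, the electron donor of mitochondrial steroid hydroxylases, fell at a log2 fold of -1.44.

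**Figure D4:**
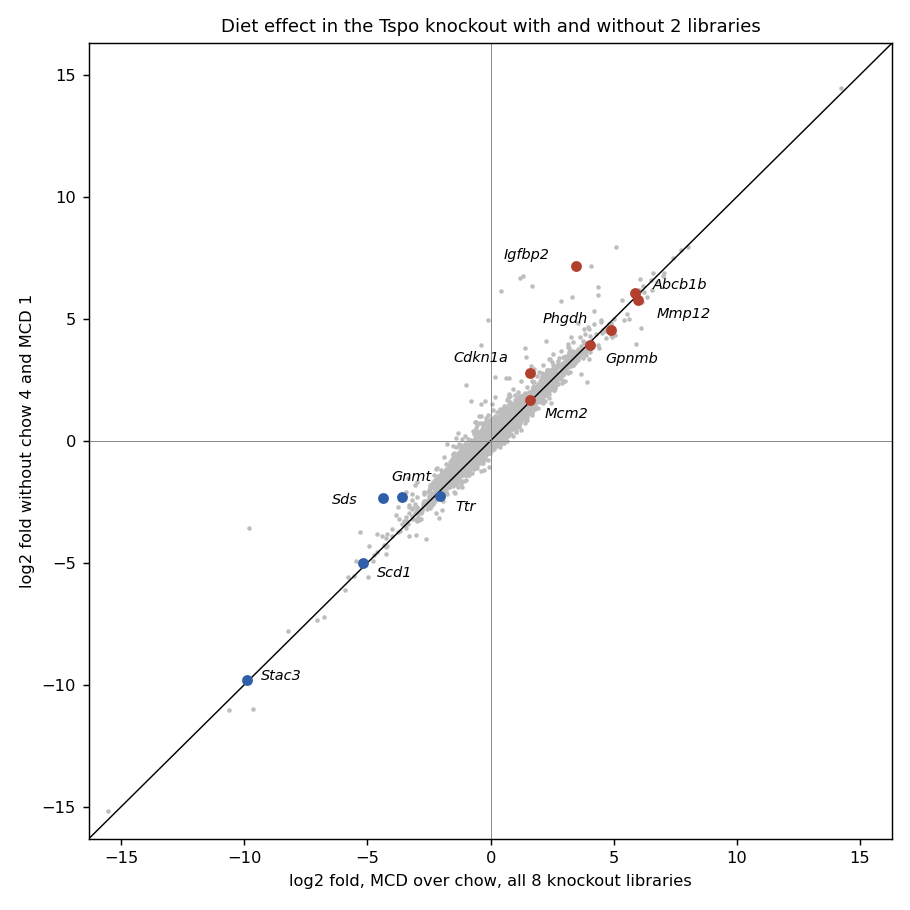
Log2 fold of MCD over chow in the knockout with all 8 libraries (horizontal) and without the doubtful libraries (vertical), 1 grey point per tested gene, with 12 named genes in colour and the line of equality. Of the 4514 genes called with all libraries 4087 were called without the pair, and Sds moved from -4.39 to -2.36.

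The same diet in the wild type, in the 8 other libraries, gave 3809 called genes (34.1%). Of these 3052 were also called in the knockout in the same direction, 67.6% of the knockout's calls and 80.1% of the wild type's, and 0 were called in opposite directions. The difference of the diet effects was called for 0 of 11162 genes with edgeR (330 at an unadjusted p under 0.05, 2.96%). DESeq2 called 1, LOC500124, and edgeR without the doubtful libraries called 1, Tmem55a. The 5 genes with the smallest p in each direction had an adjusted p of 1.00 each. Scd1 fell further in the knockout than in the wild type, at log2 folds of -5.19 and -3.12, a difference of -2.07 ± 0.53 (unadjusted p = 0.0012). Acly stood at -1.52 in the knockout and 0.12 in the wild type on the log2 scale, a difference of -1.63 ± 0.43 (unadjusted p = 0.00144). Thrsp had log2 folds of -2.99 and -1.55, a difference of -1.44 ± 0.40 (unadjusted p = 0.00231). These 3 genes of fatty acid synthesis are joined on the lower side by Psmb8, an immunoproteasome subunit, and Tmem55a, a phosphoinositide phosphatase, with log2 differences of -1.01 ± 0.30 (unadjusted p = 0.00352) and -1.56 ± 0.42 (unadjusted p = 0.00186). In the knockout alone Tmem55a had a log2 difference of -0.33 (adjusted p = 0.372, and -0.86, adjusted p = 0.00496, without the doubtful libraries). On the other side Col27a1, a cartilage-type fibrillar collagen, had log2 folds of -0.36 in the knockout and -2.49 in the wild type, a difference of 2.12 ± 0.49 (unadjusted p = 5.28e-04). Epb41l1, a membrane skeleton protein, Pcgf2, a Polycomb subunit, Ccdc77 and Zfp414 had log2 differences of 1.04 ± 0.25 (unadjusted p = 7.42e-04), 1.16 ± 0.34 (unadjusted p = 0.00312), 1.71 ± 0.51 (unadjusted p = 0.00392) and 0.78 ± 0.22 (unadjusted p = 0.00268). None of these differences passed the adjusted threshold in the edgeR fit of all libraries, and Tmem55a passed it only without the doubtful libraries. In the fit of all libraries no gene is thus shown to answer the diet differently with and without Tspo, and none is shown to answer alike.

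**Figure D5:**
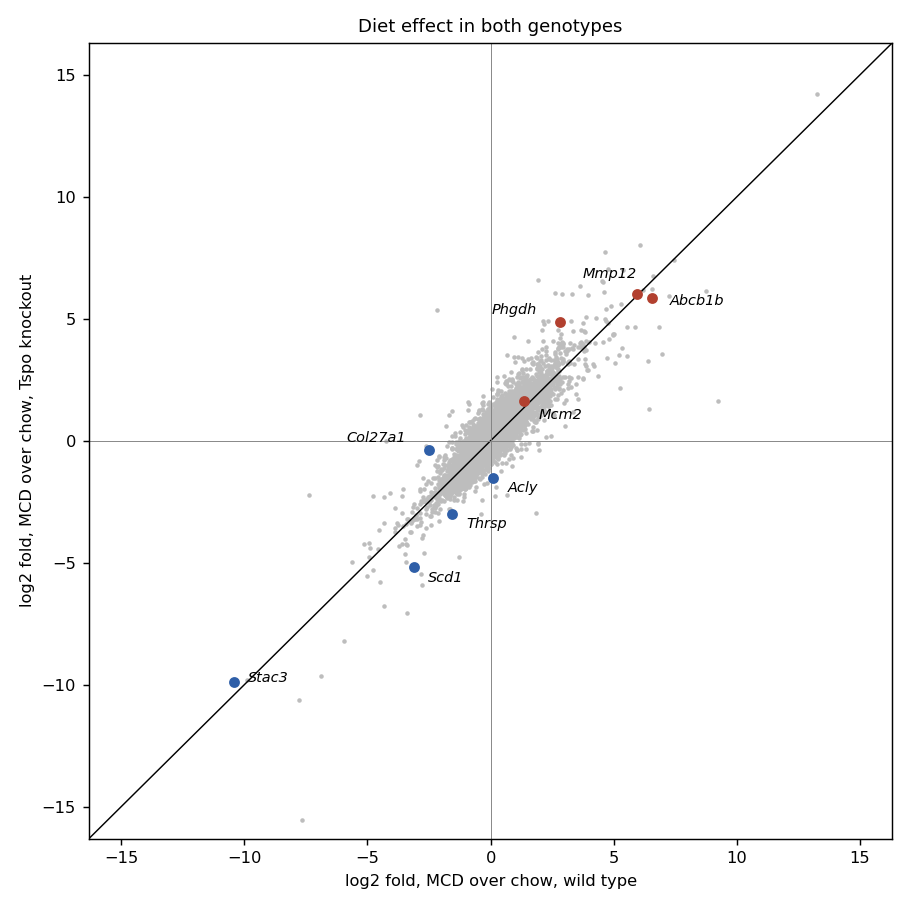
Log2 fold of MCD over chow in the wild type (horizontal) and in the knockout (vertical), 1 grey point per tested gene, with coloured points for named genes and the line of equality. Most points lie along the line, and Scd1, Acly and Thrsp lie below it, at -5.19, -1.52 and -2.99 in the knockout.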

How the data were processed

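RNA from rat liver was sequenced as stranded mRNA libraries, and 16 libraries in 4 groups of 4 were used. The authors' deposited table holds expected counts per gene, estimated with RSEM 1.2.15 and Bowtie2 2.1.0 on the rn6 build, per the submitters' processing notes. The sources used here do not say whether reads were counted by strand, so reads of antisense pairs cannot be told apart. Expected counts share reads among close copies (Cyp2c, Cyp3a, Sult2a, Gsta and globin genes), whose single values are uncertain.

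Counts were rounded (88.9% were whole as deposited) and genes with low counts dropped by edgeR's filterByExpr, leaving 11162 of 17168. TMM factors and a quasi-likelihood fit of all 16 libraries with 1 term per group were used (edgeR 4.0.16, limma 3.58.1, R 4.3.3), and groups were taken from the library titles. The biological coefficient of variation was 28.0%. In data simulated for this comparison over 11162 genes, edgeR recovered 6 of 50 genes changed 1.5-fold, 23 of 50 changed 2-fold, 48 of 50 changed 4-fold and 49 of 50 changed 8-fold. Only these genes were changed, far fewer than the 4514 called in the data, which makes the adjusted threshold stricter in the simulation. They were also drawn only from genes above a minimum mean count. These counts therefore do not give the share recovered in the data. Named genes are Tspo, the 15 largest called changes in each direction with at least 5 CPM in the higher group, at least 3 mean counts in the lower group, no overlap between groups and no provisional name, up to 4 called members per list by p (2 where none was called), further list members that complete a pathway, and the 5 smallest p in each direction for the difference between genotypes. The members and lists were chosen with earlier results of these data known.

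Alternatives were other scaling factors, no filter, only the 8 knockout libraries, the library number as a block, the message length index, centred within groups, as a covariate, DESeq2 1.42.0, each library left out and the doubtful pair left out. Leaving out ribosomal RNA, and dropping the scaling factors for gene lists, were chosen after seeing the data. Promoter sequences are RefSeq's for GRCr8, matched by symbol for 11459 genes of the table. A few members of these lists are counted but not reported here by name.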

Additional observations from a re-analysis of the deposited data

Results flagged for a closer look

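A library was noted where its gap to the nearest of the other 3 libraries of its group took up more than Dixon's critical share of the group's range. This was met in 66 of 500 pairs of a gene named above and a diet group, and chance notes about 1 group in 20. The 2 doubtful libraries account for most of them, with 34 in chow 4 and 18 in MCD 1, and the other 6 libraries for 0 to 7 each.

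The library labelled knockout on chow 4 stood above the other 3 in CPM for Apoc2 6007, Ass1 2498, Baat 5112, Bbc3 43.9, Cdkn1a 62.3, Cdo1 3981, Cox7b 1828, Cps1 2499 and Cth 6320.1. It also stood above them, in CPM, for Cyp2b1 2.41, Dbi 4812, Etnk2 225, F2 4538, Fdx1 212, Gnmt 2448, Gsta1 7558, Ifi27 2529 and Igfbp2 10.3. It also stood above them, in CPM, for Khk 755, Mat1a 4435, Ndufa6 1551, Nr1i3 49.1, Otc 1651, Pcyt2 669, Prodh2 599, Sds 157 and Srebf1 1026. It also stood above them, in CPM, for Sult2a1 3911, Tfr2 452, Tspo 4.42 and Vdac1 259. It stood below them in CPM for Abcc4 1.21, Igf1 583 and Ndufs1 48.7.

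The library labelled knockout on MCD 1 stood above the other 3 in CPM for Baat 937, Cdo1 794, Cox7b 292, Dbi 673, Etnk2 88.8, Fabp4 117, Fdx1 73.99, Gsta1 871 and Ifi27 329. It also stood above them, in CPM, for Mmp27 82.9, Ndufa6 234, Nnmt 43.7, Nr3c1 97.98, Otc 329.6, Pemt 113 and Tmem55a 18.8. It stood below them in CPM for Cdc20 7.09 and Tgfb1 8.97.

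The library labelled knockout on chow 1 stood above the other 3 in CPM for Gpx2 1.82, Spp1 9.65 and Vsig4 37.1. The library labelled knockout on chow 3 stood above the other 3 in CPM for Abcc1 1.98 and Mmp12 1.39. The library labelled knockout on MCD 2 stood above the other 3 in CPM for Cyp2b1 27.1. It stood below them in CPM for Alas2 0.458. The library labelled knockout on MCD 4 stood above the other 3 in CPM for Akr1b8 7.18, Ass1 1275, Cyp7a1 432, Fads1 1083, Fads2 954 and Sult1e1 0.0552. It stood below them in CPM for Slc1a2 6.79.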

How the results depend on the processing

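The count of 4514 changed genes was 3332 to 5599 under every alternative except 1. Without scaling factors it was 6853, with 6448 higher and 405 lower, and the median gene then moved with it. Leaving out 1 library at a time gave 3347 to 5343 genes (1875 to 2830 higher and 1472 to 2513 lower), lowest without MCD library 2 and highest without MCD library 1. DESeq2 called 4863. The 0 genes for the difference between genotypes stayed 0 with each library left out, and were 1 with DESeq2 and 1 without the doubtful libraries. With the library number as a replicate block 4239 genes were called (2343 higher and 1896 lower). Same-numbered libraries did not deviate together (correlations of -0.282, 0.217, 0.05 and -0.316 across genes), so the numbers were not taken as pairs. Of the 250 genes named, 212 were called, and 178 of these lost the call in no alternative that gave an adjusted p. The number was 195 when the runs without scaling factors (190 kept or not tested) and with only the 8 knockout libraries (203) are set aside, and 0 changed sign. Of the 38 not called, 6 changed sign somewhere. Tspo went from 0.14 to between -0.472 and 0.951 with 1 library left out. Mttp became 0.023 with upper quartile factors, and Nr0b2 became 0.31 without the doubtful libraries. With 1 library left out the log2 difference ranged from -0.144 to 0.015 for Mttp, -0.399 to 0.084 for Acaca, -1.078 to 0.188 for Nr0b2, -0.656 to 0.282 for Ccl2 and -0.065 to 0.575 for Cps1. Depth and 4 libraries per group limit small changes most. Few simulated 1.5-fold changes were recovered, but far fewer genes were changed there than were called here. The share of small changes recovered in these data is not known.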

Other observations

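The 2 doubtful libraries also resembled each other in how they departed from their groups. Across genes, the deviations of chow 4 from the chow mean and of MCD 1 from the MCD mean correlated at 0.534, while the other pairs that included either of them gave -0.42 to -0.225. Deviations within a group cancel each other, so a positive value for this pair draws the other values toward the negative. The negative values therefore add nothing to the 0.534. Genes are not independent replicates, so no p is given. The pancreas markers, a check for neighbouring tissue, summed to 3.66 to 7.22 CPM on chow and 0.973 to 2.77 CPM on MCD. In the longer list of pancreas, fat and muscle genes 1 of 4 tested members rose and 2 fell (0 and 2 without the doubtful libraries).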
